A study of Homo sapiens with 6 samples.

Results

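The RNA levels of cadherin superfamily genes were examined in WPMY-1 cells, immortalised stroma of the normal human prostate, with and without knockdown of CAVIN1. The members were all rows of the deposited expression table whose symbol belongs to the CDH, PCDH, DSG, DSC, FAT, DCHS or CELSR families, without the Y-linked protocadherin, and 108 of 33117 rows matched. They comprise 5 classical type I cadherins, 13 classical type II cadherins, 5 other CDH genes, 7 desmosomal cadherins, 6 FAT and DCHS genes, 3 CELSR genes, 12 non-clustered protocadherins, and 15 alpha, 19 beta and 23 gamma genes of the protocadherin clusters. The shCAVIN1 group (3 libraries) carried a lentiviral short hairpin RNA against CAVIN1, a protein that coats caveolae, small pits of the plasma membrane. The shCtrl group (3 libraries) carried the control vector pLKO1. Cells of both groups were grown in DMEM with 5% serum, transduced with virus made in HEK293T cells and selected with puromycin, and the knockdown cells are described as stable clones. The comparison asks what lowering CAVIN1 does to RNA levels in these cells. The labels call the 3 libraries of a group biological replicates and do not state whether each had its own transduction or clone. The p-values therefore cover only how far these libraries vary. Only 1 hairpin was used, whose target is given in the labels.
shCAVIN1 hairpin target: gtggaggttgaggaggttatt

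Cadherins are calcium-dependent adhesion proteins with repeated extracellular domains. Classical cadherins bind the same or a related cadherin on the next cell and hold beta-catenin, p120-catenin and alpha-catenin at their cytoplasmic tail, which ties the contact to actin. Type I and type II members differ in the part of the outermost domain that swaps between partners. Desmosomal cadherins (desmogleins and desmocollins) tie the contact to intermediate filaments through plakoglobin, plakophilins and desmoplakin. FAT, DCHS and CELSR proteins are very large cadherins of planar cell polarity and growth control, and protocadherins are a large branch, best known in neurons, part of which is encoded in 3 neighbouring clusters on chromosome 5. Stromal cells are known for N-cadherin (CDH2) and cadherin-11 (CDH11), and epithelia for E-cadherin (CDH1).

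Levels are FPKM, that is fragments per kilobase of transcript scaled to all mapped fragments, so they are per length and can be set against each other across genes. A member was tested if its mean over the 6 libraries reached 0.5 FPKM. The test was limma on log2(FPKM + 0.5), two-sided, fitted on all 13941 such genes of the table and adjusted over all of them by the Benjamini-Hochberg method, and passing meant an adjusted p below 0.05. Log2 fold changes are on that scale, which understates the change of low genes. Folds and percentages are plain ratios of mean FPKM, means are given ± SD with n = 3 per group, and the error of a log2 fold change is its SE. Sequencing depth is unknown, and the lowest values give only a relative depth of 0.69 to 1.1 between libraries. Across genes, Pearson r between log2 values was 0.921 to 0.940 within groups and 0.896 to 0.913 between them. The library shCtrl replicate 2 stood apart. It listed the abundant small nuclear RNA RN7SK at 0, against 106035 to 151555 FPKM in the other 5 libraries. Genes with transcripts of at least 10 kb lay a median of 0.20 below its group mates on the log2 scale (log2 -0.20, n = 495), against a median of 0.07 for shorter transcripts, and 22 of the 28 tested members were below both mates there. Results that lean on it are therefore also given without it. In shCtrl replicate 1 the genes with long transcripts lay a median of 0.16 above its group mates, and 21 of the 28 tested members were above both mates. Of the stromal marker list, 10 of 11 genes had a mean over the 6 libraries of at least 1 FPKM, including VIM, COL1A1 and PDGFRB, with summed levels of 845 to 859 FPKM in shCAVIN1 and 1273 to 1390 FPKM in shCtrl libraries. The endothelial and blood lists had 0 of 6 genes each at that mean over the 6 libraries, and EMCN, CD3E and HBB were listed at 0 in all 6 libraries. The blood marker CD14 had 0.503, 0.607 and 0.415 FPKM in shCAVIN1 libraries, against 1.01, 1.35 and 1.30 FPKM in shCtrl libraries. PTPRC of the same list lay the other way, with 0.130, 0.128 and 0.148 FPKM in shCAVIN1 and 0.0335, 0.0655 and 0.0236 FPKM in shCtrl libraries. LYZ and CD79A stood at 73.9% and 49.4% of shCtrl.

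CAVIN1 itself, for which the table uses the former symbol PTRF, was lower throughout the shCAVIN1 group. Its levels were 134, 139 and 150 FPKM in shCAVIN1 replicates 1 to 3, against 330, 347 and 330 FPKM in shCtrl replicates 1 to 3. The mean of 141 ± 8.33 FPKM was 42.0% of the 336 ± 9.78 FPKM of shCtrl (log2 fold change -1.25, SE 0.0586, limma adjusted p = 2.88e-05). In bulk RNA, fewer cells with a transcript and less of it per cell cannot be told apart, here and below.

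Of the 108 members, 28 reached the filter, and of these 9 rose, 10 fell and 9 did not pass the test in shCAVIN1 cells. The members that rose were CDH2, CDH4, CDH6, CDH13, CELSR2, PCDH7, PCDH9, PCDH10 and PCDH18. Those that fell were CDH11, FAT1, FAT3, DSG2, DSC2 and 5 gamma protocadherins. Thus 67.9% of the tested members passed, beside a wide background of 55.5% of all 13941 tested genes, 27.3% as higher and 28.2% as lower. A called change of at least 1 on the log2 scale was found for 7 of the 28 tested members (25%) and for 5.54% of all tested genes, and the median absolute log2 fold change was 0.71 over the tested members and 0.27 over all tested genes. For 9 of the 28, the mean of a group was itself under 0.5 FPKM, so that these passed the filter through the group where they were high. They are CDH11, CDH6, PCDH9, PCDHGA6, PCDHGA7, PCDHGA8, PCDHGA9, PCDHGB3 and PCDHGB6. The changes of at least 1 include CDH11 and CDH6. The filter therefore bears on the shares of members given above. How many of all tested genes passed it in that way was not counted, so no conclusion is drawn from the difference to the background. Without shCtrl replicate 2, 8 members rose and 13 fell, and without shCtrl replicate 1, 10 rose and 8 fell. These fits called 8468 and 7222 of all 13941 tested genes, against 7734 with all 6 libraries.

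**Figure D1:**
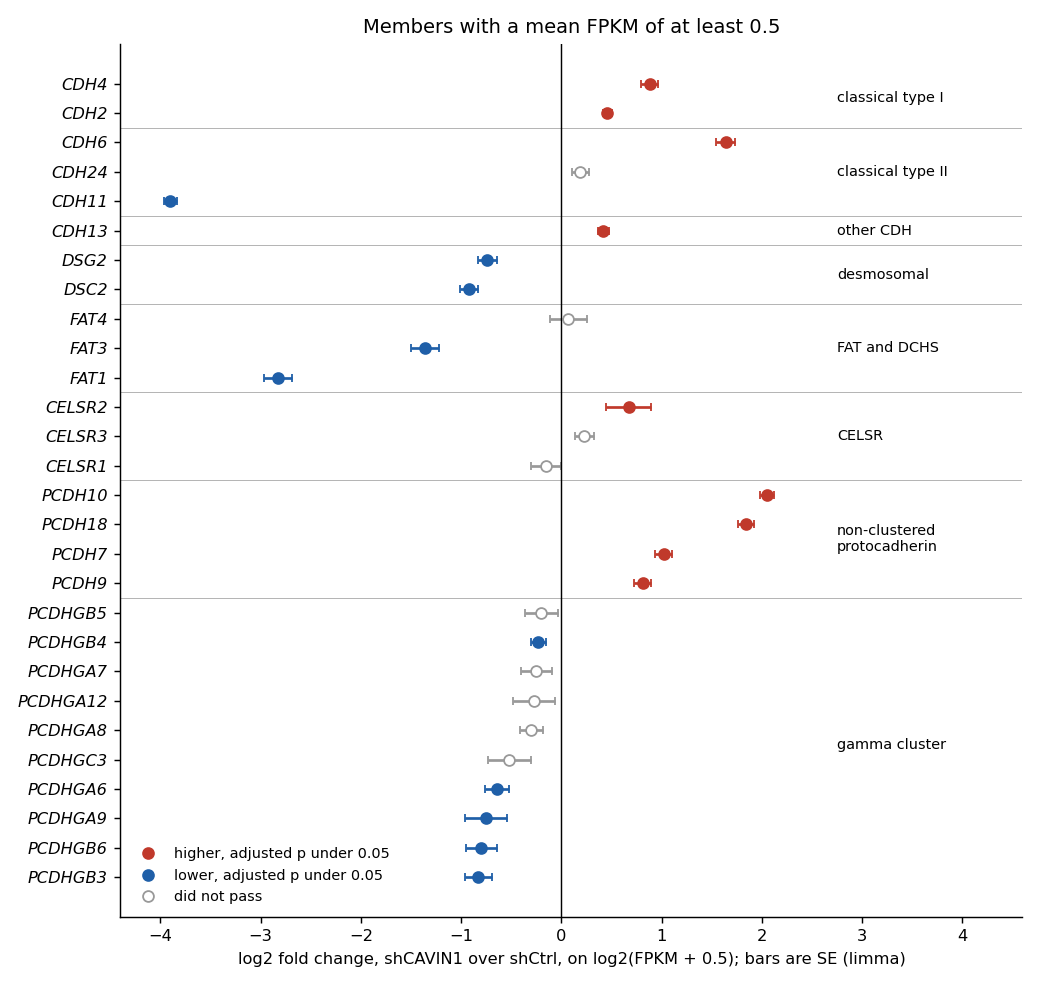
Log2 fold change of shCAVIN1 over shCtrl on log2(FPKM + 0.5) for the 28 tested members, grouped by subfamily, with bars for the SE from limma; filled marks passed an adjusted p of 0.05. CDH11 lies farthest to the left at -3.90 and PCDH10 farthest to the right at 2.05, and every gamma cluster gene lies left of 0.

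The summed level of all members was 166 ± 5.19 FPKM in shCAVIN1 and 174 ± 17.6 FPKM in shCtrl libraries. The groups overlapped through shCtrl replicate 2 (157 FPKM). Without it, shCAVIN1 libraries (163 to 172 FPKM) lay below the 173 and 192 FPKM of shCtrl, with the nearest almost touching, and their mean was 91.3% of shCtrl. The make-up of that sum differed. N-cadherin made up 44.2% of it in shCAVIN1 and 30.7% in shCtrl cells. The next member by level was CDH13 in shCAVIN1 cells, at 12.4% of the sum, and FAT1 in shCtrl cells, at 14.5%. In shCAVIN1 cells the order of mean levels ran CDH2, CDH13, CDH24, PCDH10, FAT3 and DSG2, and in shCtrl cells CDH2, FAT1, CDH13, FAT3, CDH24, DSG2 and CDH11. Some neighbours in these orders were not separated by their libraries: FAT3 and DSG2 in shCAVIN1 cells (4.45 to 4.84 and 4.09 to 5.11 FPKM), and in shCtrl cells FAT3 and CDH24 (10 to 15.2 and 11.7 to 13.4 FPKM) as well as DSG2 and CDH11 (7.14 to 8.21 and 7.18 to 7.74 FPKM).

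Non-clustered protocadherins summed to 16.5 ± 0.589 FPKM in shCAVIN1 and 4.27 ± 0.378 FPKM in shCtrl cells, which is 387% of the shCtrl level. FAT and DCHS genes went the other way, with 10.1 ± 0.678 FPKM in shCAVIN1 and 40.5 ± 8.04 FPKM in shCtrl cells, or 24.9% (22.5% without shCtrl replicate 2). The beta cluster summed to 0.983 ± 0.101 FPKM in shCAVIN1 and 3.09 ± 0.428 FPKM in shCtrl cells, or 31.9%. For these 3 subfamilies, no library of either group came near the other group's range. Desmosomal cadherins summed to 5.63 ± 0.676 FPKM in shCAVIN1 and 10.3 ± 0.611 FPKM in shCtrl cells, and classical type I cadherins to 76.1 ± 2.47 FPKM in shCAVIN1 and 55.2 ± 1.41 FPKM in shCtrl cells, both without overlap. These sums are descriptions and were not tested. A single gene made up much of most of them. In shCAVIN1 cells PCDH10 was 58.8% of the non-clustered, DSG2 80.1% of the desmosomal and CDH2 96.7% of the type I sum. FAT1 was 62.2% of the FAT and DCHS sum in shCtrl cells. The top beta gene, PCDHB5, was only 21.4% of its sum in shCAVIN1 cells.

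**Figure D2:**
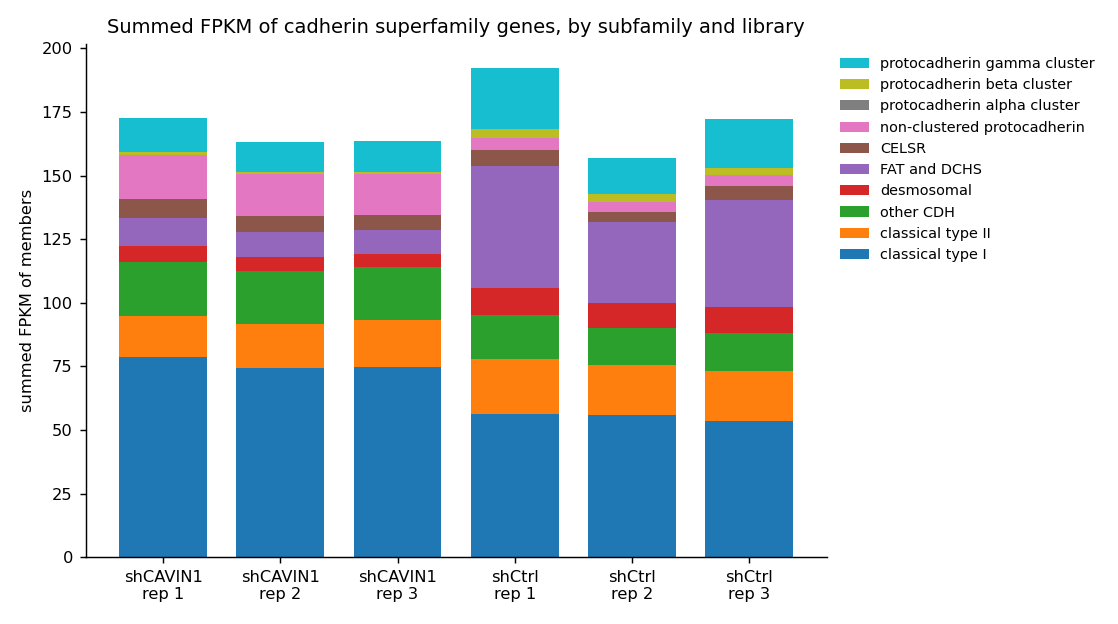
Summed FPKM of the cadherin superfamily genes in each library, stacked by subfamily, with 1 bar per library, the 3 shCAVIN1 bars left of the 3 shCtrl bars and the vertical axis starting at 0. Non-clustered protocadherins take 16.1 to 17.2 FPKM in shCAVIN1 and 3.84 to 4.54 FPKM in shCtrl bars, and FAT and DCHS genes take 9.64 to 10.9 FPKM in shCAVIN1 and 31.9 to 47.8 FPKM in shCtrl bars.

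Among the classical type I cadherins, both tested members rose, beside 27.3% higher over all tested genes, and CDH3 was low in shCAVIN1 cells. CDH2 (chromosome 18, 27950966 to 28177446, minus strand, GRCh38), N-cadherin, is the mesenchymal and neural member and was the most abundant cadherin of both groups. It stood at 76.3, 72.0 and 72.5 FPKM in shCAVIN1 libraries, against 54.4, 54.1 and 51.8 FPKM in shCtrl libraries. All 3 shCAVIN1 libraries were above all 3 shCtrl libraries, a 1.38-fold rise (log2 0.46, SE 0.0431, limma adjusted p = 0.000308). CDH4 (chromosome 20, 61252426 to 61940617), R-cadherin, which can pair with N-cadherin in mixed contacts, had 2.33, 2.14 and 2.14 FPKM in shCAVIN1 libraries, against 1.06, 0.860 and 0.994 FPKM in shCtrl libraries. It was 2.27-fold higher (log2 0.88, SE 0.0810, limma adjusted p = 0.000284). CDH3, P-cadherin, a cadherin of basal epithelial layers, missed the filter narrowly, with 0.208, 0.208 and 0.154 FPKM in shCAVIN1 libraries and 0.737, 0.768 and 0.779 FPKM in shCtrl libraries, a mean of 25% of shCtrl without overlap. E-cadherin, CDH1, the defining epithelial member, was at 0.0502 to 0.0642 FPKM in shCAVIN1 and 0.0143 to 0.0678 FPKM in shCtrl libraries, so both groups were near the floor and overlapped. CDH15, M-cadherin of muscle, stayed at or below 0.0554 FPKM in every library.

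Genes under the filter were reached with a wider fit chosen after the data were seen, limma on log2(FPKM + 0.05) over the 18139 genes with a mean of at least 0.05 FPKM. It tested 65 members, of which 15 were higher, 24 lower and 26 not past the threshold, beside a background of 47.7% called (23.6% higher and 24.1% lower). Without shCtrl replicate 2 it gave 14 higher and 28 lower. CDH3 was lower there (log2 -1.77, SE 0.165, adjusted p = 0.000297). The other 43 members had a mean under 0.05 FPKM, and 4 of them (CDH22, DSG1, DSG4 and PCDHB1) were listed at 0 in all 6 libraries.

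Of the 3 tested type II cadherins, CDH11 fell, CDH6 rose and CDH24 did not pass. CDH11 (chromosome 16, 64943753 to 65126112, minus strand), cadherin-11 or OB-cadherin, is the type II cadherin of fibroblasts and osteoblasts. It was at 0.0238, 0.0228 and 0.0421 FPKM in shCAVIN1 libraries, against 7.74, 7.34 and 7.18 FPKM in shCtrl libraries. The shCAVIN1 mean of 0.0296 ± 0.0108 FPKM was 0.399% of the 7.42 ± 0.288 FPKM of shCtrl cells (log2 fold change -3.90, SE 0.0658, limma adjusted p = 1.54e-06). The pseudocount sets much of that log2 value, which ranged from -5.86 to -3.03 over 15 other settings of the test. Genes of the stromal list went both ways. COL1A2 (9.78 ± 0.731 FPKM in shCAVIN1 and 85.5 ± 11.9 FPKM in shCtrl) and THY1 (101 ± 2.2 FPKM in shCAVIN1 and 160 ± 9.90 FPKM in shCtrl) were among those that fell. ACTA2 rose (9.89 ± 0.287 FPKM in shCAVIN1 and 4.94 ± 0.289 FPKM in shCtrl, log2 0.93), as did FAP (log2 0.35, limma adjusted p = 0.0392), and VIM and PDGFRB did not pass the test. The part of the cell make-up in the CDH11 result was not tested.

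CDH6 (chromosome 5, 31193750 to 31329146, plus strand), K-cadherin, known from kidney, had 1.90, 1.61 and 1.83 FPKM in shCAVIN1 libraries, against 0.231, 0.263 and 0.199 FPKM in shCtrl libraries. The groups were far apart, 7.69-fold by their means (log2 1.64, SE 0.0925, limma adjusted p = 5.52e-05). CDH24, a type II cadherin that also binds catenins, had 12.8, 14.3 and 15.1 FPKM in shCAVIN1 libraries, against 13.4, 11.7 and 11.8 FPKM in shCtrl libraries. Its groups overlapped (log2 0.19, SE 0.0808, limma adjusted p = 0.0949). So CDH24 was the most abundant type II cadherin in each group, with 81.5% of the type II sum in shCAVIN1 and 60.3% in shCtrl cells, CDH11 supplying most of the rest in shCtrl cells.

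The low type II members mostly lay higher in shCAVIN1 cells. CDH10 was at 0.785, 0.683 and 0.712 FPKM in shCAVIN1 libraries, against 0.246, 0.257 and 0.0933 FPKM in shCtrl libraries, and CDH18 at 0.289, 0.288 and 0.447 FPKM in shCAVIN1 libraries, against 0.0433, 0.0270 and 0.0496 FPKM in shCtrl libraries. Both are cadherins of the nervous system. CDH7 stood at 0.126 to 0.159 FPKM in shCAVIN1 and 0.0103 to 0.0215 FPKM in shCtrl libraries. In the wider fit, CDH10 (log2 1.72, adjusted p = 0.00498), CDH18 (2.11, 0.000926) and CDH7 (1.54, 0.00307) were all higher. CDH5, VE-cadherin, the defining endothelial cadherin, had 0.103 to 0.110 FPKM in shCAVIN1 and 0.0353 to 0.0507 FPKM in shCtrl libraries (log2 0.79, adjusted p = 0.0361 in that fit). The endothelial list summed to 1.07 to 1.24 FPKM in shCAVIN1 and 0.388 to 0.847 FPKM in shCtrl libraries. Most of it was TEK in shCAVIN1 cells (0.941 ± 0.0177 FPKM in shCAVIN1 and 0.227 ± 0.0623 FPKM in shCtrl). VWF (0.0397 ± 0.0121 FPKM in shCAVIN1 and 0.0182 ± 0.00632 FPKM in shCtrl) and KDR (0.0471 ± 0.0308 FPKM in shCAVIN1 and 0.00119 ± 0.00206 FPKM in shCtrl) also lay higher. PECAM1 stood at 61.7% and CLDN5 at 31.5% of shCtrl. VWF, KDR, PECAM1 and CLDN5 were all under the filter. The part of this list in the CDH5 values was not tested. CDH8 went the other way: all 3 shCAVIN1 libraries list it at 0, and the shCtrl libraries at 0.0240, 0.0413 and 0.0400 FPKM. CDH12 was also low in shCAVIN1 cells, with 0.0260 to 0.0517 FPKM in shCAVIN1 and 0.0865 to 0.116 FPKM in shCtrl, but missed the threshold of the wider fit (adjusted p = 0.0528). On the genome, CDH18, CDH12, CDH10, CDH9 and CDH6 lie in that order on the short arm of chromosome 5, between 19472951 and 31329146. Of these neighbours CDH18, CDH10 and CDH6 were higher in a test, CDH9 (0.00713 to 0.0268 FPKM in shCAVIN1, at most 0.00563 FPKM in shCtrl) lay at the floor, and CDH12 lay lower.

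CDH13 (chromosome 16, 82626803 to 83800640, plus strand), T-cadherin, is held in the membrane by a lipid anchor and lacks the catenin-binding tail. It had 20.6, 20.6 and 20.5 FPKM in shCAVIN1 libraries, against 16.6, 14.4 and 14.8 FPKM in shCtrl libraries. The shCAVIN1 libraries were nearly identical and all above shCtrl (1.35-fold, log2 0.42, SE 0.0596, limma adjusted p = 0.00159). CDH23, a cadherin of the hair cell tip link, was at 0.210 to 0.314 FPKM in shCAVIN1 and 0.123 to 0.314 FPKM in shCtrl libraries and did not pass in the wider fit (adjusted p = 0.542). PCDH15, its partner in the tip link and a non-clustered protocadherin, was higher there (0.103 to 0.133 FPKM in shCAVIN1 and 0.0281 to 0.0553 FPKM in shCtrl, log2 0.89, adjusted p = 0.0291). CDH16, CDH17 and CDH26 stayed at or below 0.0239 FPKM in every library.

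**Figure D3:**
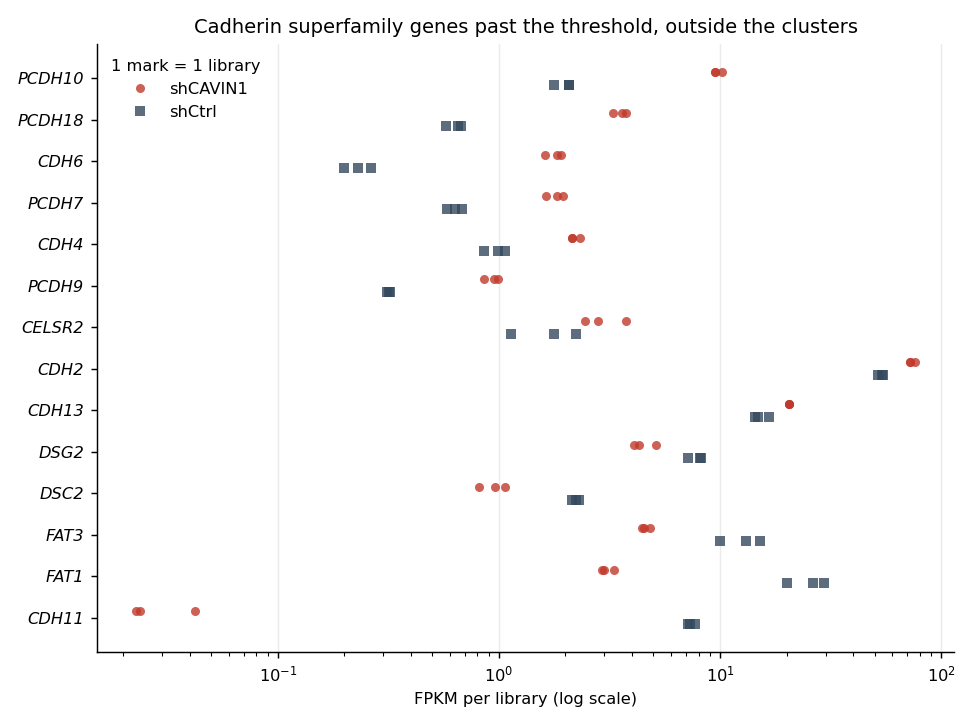
FPKM per library (log scale) of the 14 members outside the protocadherin clusters that passed the threshold, with circles for the 3 shCAVIN1 and squares for the 3 shCtrl libraries. In each gene all 3 circles lie on the same side of all 3 squares, and the gap is widest for CDH11 (0.0228 to 0.0421 FPKM in shCAVIN1 and 7.18 to 7.74 FPKM in shCtrl).

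Both tested desmosomal cadherins fell, beside 28.2% lower over all tested genes. DSG2 and DSC2 are the desmoglein and the desmocollin found most widely across tissues. DSG2 was at 5.11, 4.32 and 4.09 FPKM in shCAVIN1 libraries, against 8.15, 7.14 and 8.21 FPKM in shCtrl libraries. Its mean of 4.51 ± 0.537 FPKM was 57.5% of shCtrl, without overlap (log2 -0.74, SE 0.0943, limma adjusted p = 0.00104). DSC2 had 1.07, 0.959 and 0.809 FPKM in shCAVIN1 libraries, against 2.31, 2.24 and 2.14 FPKM in shCtrl libraries, or 42.5% (log2 -0.92, SE 0.0893, limma adjusted p = 0.000351). The 7 desmosomal genes lie side by side on chromosome 18 between 30990008 and 31549008, and the other 5 did not reach 0.2 FPKM in any library. DSG3, of stratified epithelium, had 0.0978 to 0.150 FPKM in shCAVIN1 and 0.0917 to 0.187 FPKM in shCtrl libraries. Of the epithelial marker list, 3 of 9 genes had a mean over the 6 libraries of at least 1 FPKM (KRT8, KRT18 and CLDN7), and the list summed to 242 to 258 FPKM in shCAVIN1 and 401 to 435 FPKM in shCtrl libraries. Most of that sum was KRT18 (219 ± 7.59 FPKM in shCAVIN1 and 385 ± 17.7 FPKM in shCtrl), which fell, as did CLDN7, while KRT8 rose (28.6 ± 0.247 FPKM in shCAVIN1 and 23.5 ± 1.23 FPKM in shCtrl, log2 0.28, limma adjusted p = 0.00332). KLK3 was listed at 0 in all 6, and EPCAM had 0.332 ± 0.0568 FPKM in shCAVIN1 and 0.468 ± 0.106 FPKM in shCtrl cells. The part of these markers in the desmosomal result was not tested.

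Of the FAT and DCHS genes, FAT1 and FAT3 fell and FAT4 did not pass. FAT1 (chromosome 4, 186587783 to 186726722, minus strand) is a giant cadherin known for actin regulation and growth suppression. Its levels were 3.33, 3.00 and 2.92 FPKM in shCAVIN1 libraries, against 29.4, 20.1 and 26.2 FPKM in shCtrl libraries. Even the lowest shCtrl library lay far above all shCAVIN1 libraries, and the mean of 3.08 ± 0.218 FPKM was 12.2% of the 25.2 ± 4.75 FPKM of shCtrl (log2 -2.83, SE 0.139, limma adjusted p = 3.40e-05). FAT3 (chromosome 11, 92352096 to 92896470, plus strand), known from neurons of the mouse retina, had 4.84, 4.51 and 4.45 FPKM in shCAVIN1 libraries, against 15.2, 10 and 13.1 FPKM in shCtrl libraries. That is 36.1% (log2 -1.36, SE 0.142, limma adjusted p = 0.000462). FAT4, the mammalian relative of fly Fat and receptor for DCHS1, had 2.09, 1.86 and 1.85 FPKM in shCAVIN1 libraries, against 2.37, 1.25 and 1.98 FPKM in shCtrl libraries. The groups overlapped, and the sign of the log2 fold change turned from 0.07 (SE 0.182, limma adjusted p = 0.772) to -0.13 (adjusted p = 0.262) without shCtrl replicate 2, the lowest library of its group for FAT1, FAT3 and FAT4.

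The partner DCHS1 was under the filter, with 0.340, 0.247 and 0.262 FPKM in shCAVIN1 libraries and 0.685, 0.409 and 0.594 FPKM in shCtrl libraries. It was lower in the wider fit (log2 -0.86, adjusted p = 0.0216), and its relative DCHS2 was higher (0.103 to 0.242 FPKM in shCAVIN1 and 0.0220 to 0.0397 FPKM in shCtrl, log2 1.30, adjusted p = 0.0184). FAT2 had 0.0438 to 0.0572 FPKM in shCAVIN1 and 0.0883 to 0.113 FPKM in shCtrl libraries and did not pass there (adjusted p = 0.108).

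Of the 3 CELSR genes, receptors of planar cell polarity with many membrane passes, 1 rose and 2 did not pass. CELSR2 (chromosome 1, 109250019 to 109275750) had 3.76, 2.81 and 2.44 FPKM in shCAVIN1 libraries, against 2.24, 1.14 and 1.77 FPKM in shCtrl libraries. The groups stood close, 2.44 FPKM in the lowest shCAVIN1 and 2.24 FPKM in the highest shCtrl library, and the rise passed narrowly (log2 0.67, SE 0.222, limma adjusted p = 0.0414). It did not pass without shCtrl replicate 2 (log2 0.47, adjusted p = 0.0824), nor without shCtrl replicate 3 (adjusted p = 0.0917) or without shCAVIN1 replicate 1, 2 or 3 (0.121, 0.0887 and 0.0530). CELSR1 had 1.76 to 2.26 FPKM in shCAVIN1 and 1.76 to 2.77 FPKM in shCtrl libraries (limma adjusted p = 0.420). CELSR3 had 1.80, 1.51 and 1.57 FPKM in shCAVIN1 libraries, against 1.5, 1.18 and 1.28 FPKM in shCtrl libraries, and did not pass either (log2 0.23, limma adjusted p = 0.0913).

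Of the 12 non-clustered protocadherins, 4 were tested and all 4 rose, beside 27.3% higher over all tested genes. PCDH9 reached the filter only through its shCAVIN1 mean, so the filter bears on this count. PCDH10 (chromosome 4, 133149315 to 133208606, plus strand), a delta-protocadherin that recruits actin regulators at contacts, stood at 10.2, 9.49 and 9.46 FPKM in shCAVIN1 libraries, against 2.07, 1.78 and 2.07 FPKM in shCtrl libraries. The rise was 4.92-fold, with little spread within groups (log2 2.05, SE 0.0671, limma adjusted p = 1.06e-05). PCDH18 (chromosome 4, 137518918 to 137532494, minus strand), of the same delta branch, had 3.61, 3.77 and 3.29 FPKM in shCAVIN1 libraries, against 0.575, 0.675 and 0.652 FPKM in shCtrl libraries, 5.61-fold higher (log2 1.84, SE 0.0781, limma adjusted p = 2.15e-05). PCDH7 (chromosome 4, 30720415 to 31146805), a membrane protein of the other delta branch, had 1.95, 1.63 and 1.84 FPKM in shCAVIN1 libraries, against 0.635, 0.585 and 0.679 FPKM in shCtrl libraries. Again no library crossed over (2.85-fold, log2 1.02, SE 0.0872, limma adjusted p = 0.000212). PCDH9 (chromosome 13, 66302834 to 67230445) had 0.952, 0.858 and 0.989 FPKM in shCAVIN1 libraries, against 0.322, 0.313 and 0.319 FPKM in shCtrl libraries (2.93-fold, log2 0.81, SE 0.0882, limma adjusted p = 0.000554).

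The low members of this branch did not all lie higher. PCDH19, an X-linked delta-protocadherin known for epilepsy, had 0.0242, 0.0126 and 0.0239 FPKM in shCAVIN1 libraries, against 0.246, 0.0574 and 0.141 FPKM in shCtrl libraries, and was lower in the wider fit (log2 -1.38, adjusted p = 0.0332). PCDH11X was lower as well (0.0121 to 0.0309 FPKM in shCAVIN1 and 0.101 to 0.153 FPKM in shCtrl, adjusted p = 0.00837), but it has a near-identical copy, so its fragments may be split. PCDH17 had at most 0.0109 FPKM in shCAVIN1 and 0.0206 to 0.0696 FPKM in shCtrl libraries. PCDH1 and PCDH12 did not pass in the wider fit (adjusted p = 0.340 and 0.385). The neural and glial marker list summed to 2.93 to 3.03 FPKM in shCAVIN1 and 1.0 to 1.12 FPKM in shCtrl libraries, with 1 of 6 genes (MBP) at a mean over the 6 libraries of 1 FPKM and ELAVL4 listed at 0 throughout. MBP (1.84 ± 0.0293 FPKM in shCAVIN1 and 0.637 ± 0.0547 FPKM in shCtrl) and SYT1 (0.966 ± 0.0477 FPKM in shCAVIN1 and 0.104 ± 0.0412 FPKM in shCtrl) rose. The glial markers GFAP and SOX10, both under the filter, stood at 37.7% and 38.8% of shCtrl. Its part in the protocadherin results was not tested.

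The clustered protocadherins lie next to each other on chromosome 5, between 140786136 and 141512979, in the order alpha, beta, gamma. Each variable exon of the alpha and gamma clusters has its own promoter and is spliced to constant exons at the end of its cluster, so members of a cluster share sequence. By GENCODE 29, exons shared with other members made up a median of 46.5% of the exon bases of the 15 alpha genes and 43.8% of the 23 gamma genes, with all 15 and 22 of 23 sharing some, and 0 of 17 placed beta genes did. How the authors' counting dealt with shared exons is not given in the sources used here, so levels of single alpha and gamma genes are uncertain, and the beta genes are similar copies of each other.

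Promoters of these clusters are known for a conserved element with the core CGCT just before the start. The stretches below show it for beta genes with the clearest differences and for PCDHB16 and PCDHB9, which did not differ. They are 60 bases each from the RefSeq promoter table (GRCh38.p14), with the letters GTGGCGCT in capitals.
PCDHB2, chr5:141094534-141094593, plus strand: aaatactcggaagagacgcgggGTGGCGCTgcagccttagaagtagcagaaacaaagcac
PCDHB5, chr5:141135169-141135228, plus strand: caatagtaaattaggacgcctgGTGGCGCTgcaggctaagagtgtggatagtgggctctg
PCDHB13, chr5:141213855-141213914, plus strand: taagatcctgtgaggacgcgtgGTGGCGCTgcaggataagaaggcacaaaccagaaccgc
PCDHB14, chr5:141223253-141223312, plus strand: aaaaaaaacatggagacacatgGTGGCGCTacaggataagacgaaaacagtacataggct
PCDHB15, chr5:141245304-141245363, plus strand: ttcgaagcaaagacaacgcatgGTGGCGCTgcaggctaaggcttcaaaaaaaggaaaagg
PCDHB16, chr5:141182300-141182359, plus strand: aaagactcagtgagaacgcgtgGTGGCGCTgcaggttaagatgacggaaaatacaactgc
PCDHB9, chr5:141187064-141187123, plus strand: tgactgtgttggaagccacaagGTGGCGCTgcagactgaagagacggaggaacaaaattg
On either strand, GTGGCGCT occurred in 13 of the 14 beta windows of 300 bases (92.9%; PCDHB1 was the exception) and in 1.15% of all 35116 windows of the table. In the 13 genes it began 1 to 83 bases before the start, with a median of 65. The letters were read off these promoters, so the counts describe them. Both PCDHB16 and PCDHB9 hold the same letters as the genes that were lower, and the part of these letters in the RNA levels was not tested. PCDHB13 and PCDHB8 shared 59 of 60 letters over this stretch, against a median of 33 over the 78 beta pairs.

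All 19 beta genes were under the filter. Of the 9 with a mean of at least 0.05 FPKM, 6 were lower in the wider fit and 0 higher (5 lower without shCtrl replicate 2), and the groups did not overlap in the same 6. Beside this, 24.1% of all 18139 genes of the wider fit were lower and 23.6% higher. PCDHB2 was at 0.0433, 0.0154 and 0.0614 FPKM in shCAVIN1 libraries, against 0.552, 0.431 and 0.252 FPKM in shCtrl libraries. That mean is 9.72% of shCtrl (log2 -2.34, SE 0.349, adjusted p = 0.00204). PCDHB5, the most abundant beta gene, had 0.207, 0.266 and 0.156 FPKM in shCAVIN1 libraries, against 0.640, 0.735 and 0.707 FPKM in shCtrl libraries, or 30.3% (log2 -1.54, SE 0.202, adjusted p = 0.00120). PCDHB12, PCDHB13, PCDHB14 and PCDHB15 stood at 23.0% to 24.4% of shCtrl, with log2 fold changes of -1.16, -1.65, -1.78 and -1.58 and adjusted p of 0.0322, 0.00279, 0.00514 and 0.0117 in that fit. PCDHB16 (0.115 to 0.197 FPKM in shCAVIN1 and 0.0947 to 0.151 FPKM in shCtrl) and PCDHB9 (0.0810 to 0.115 FPKM in shCAVIN1 and 0.102 to 0.127 FPKM in shCtrl) overlapped between the groups, as did PCDHB18. For PCDHB7 all 3 shCAVIN1 libraries give 0, and the shCtrl libraries 0.0215, 0.0559 and 0.0366 FPKM. PCDHB17 was the gene on the other side, with 0.0170, 0.0367 and 0.0293 FPKM in shCAVIN1 libraries, against 0.0117 FPKM in shCtrl replicate 1 and a listing at 0 in the other shCtrl libraries. Over all members with a mean of 0.05 to 0.5 FPKM, 15 of 37 were lower without overlap (40.5%) and 6 higher (16.2%). Of all 4198 genes in that range, 37.7% had no overlap, 19.0% as lower and 18.7% as higher.

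The gamma cluster had the most tested members, 10 of 23, of which 5 fell, 0 rose and 5 did not pass. For 6 of the 10 only the shCtrl mean reached 0.5 FPKM, and these hold 4 of the 5 falls (PCDHGA6, PCDHGA9, PCDHGB3 and PCDHGB6), so the filter bears on this count and it is not set against the background. The stretches below come from gamma genes with values in the text whose promoter windows hold GCGCCGCT, given in capitals. The windows of PCDHGB3, PCDHGA6 and PCDHGC3, also with values in the text, did not hold these letters on the strand of the gene.
PCDHGB4, chr5:141387607-141387666, plus strand: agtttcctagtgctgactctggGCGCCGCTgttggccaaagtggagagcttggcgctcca
PCDHGB5, chr5:141397853-141397912, plus strand: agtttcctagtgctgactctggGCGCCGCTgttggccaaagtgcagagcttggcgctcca
PCDHGB6, chr5:141407914-141407973, plus strand: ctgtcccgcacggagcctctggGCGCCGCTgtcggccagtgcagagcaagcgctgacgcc
PCDHGA9, chr5:141402704-141402763, plus strand: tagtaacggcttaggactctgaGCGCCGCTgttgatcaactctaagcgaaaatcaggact
On either strand these letters were in 13 of 25 gamma windows (52.0%) and in 3.17% of all windows. ATGTCGCT, the matching letters of the alpha cluster, was in 9 of 13 alpha windows (69.2%) and 0.234% of all. Like the beta letters, both were chosen for their own cluster, so the counts only describe these promoters. Each of the 3 motifs contains CGCT, which alone was in 91.0% of the 100 member windows and 70.0% of all windows. The letters CACCTG, bound by SNAI and ZEB factors, were in 12% of member windows and 20.6% of all. The stretches of PCDHGB4 and PCDHGB5 shared 59 of 60 letters.

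PCDHGB4 and PCDHGB5 were the most abundant gamma genes of shCAVIN1 cells and among the top 3 of shCtrl cells. PCDHGB4 had 2.37, 2.68 and 2.60 FPKM in shCAVIN1 libraries, against 3.33, 2.85 and 3.06 FPKM in shCtrl libraries, 82.8% of shCtrl (log2 -0.23, limma adjusted p = 0.0398). Its call was lost under 11 of 15 other settings of the test. PCDHGB5 overlapped, with 2.19 to 2.98 FPKM in shCAVIN1 and 2.38 to 3.80 FPKM in shCtrl (limma adjusted p = 0.350). Further from shCtrl was PCDHGB3, with 0.411, 0.352 and 0.332 FPKM in shCAVIN1 libraries, against 1.33, 0.875 and 0.933 FPKM in shCtrl libraries, or 35.0% (log2 -0.83, SE 0.134, limma adjusted p = 0.00272). PCDHGB6 had 0.597, 0.429 and 0.405 FPKM in shCAVIN1 libraries, against 1.48, 0.898 and 1.25 FPKM in shCtrl libraries, 39.5% (log2 -0.80, SE 0.156, limma adjusted p = 0.00593). PCDHGA6 had 0.50, 0.491 and 0.502 FPKM in shCAVIN1 libraries, against 1.29, 1.04 and 0.857 FPKM in shCtrl libraries, 46.9% (log2 -0.64, SE 0.120, limma adjusted p = 0.00505). In these 3 genes no library crossed over.

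PCDHGA9 had 0.462, 0.524 and 0.362 FPKM in shCAVIN1 libraries, against 1.5, 0.668 and 1.25 FPKM in shCtrl libraries (log2 -0.75, SE 0.210, limma adjusted p = 0.0231), a call that was lost without shCAVIN1 replicate 1 or 3 or without shCtrl replicate 1 or 3 (adjusted p = 0.0594, 0.0745, 0.0565 and 0.0753). PCDHGC3, whose product is the most widely expressed C-type isoform, had 2.18, 1.55 and 1.75 FPKM in shCAVIN1 libraries, against 3.68, 1.92 and 3.09 FPKM in shCtrl libraries, and did not pass (log2 -0.52, SE 0.216, limma adjusted p = 0.0855). In PCDHGC3, PCDHGA9 and PCDHGB5 the lowest shCtrl value came from replicate 2. Without that library PCDHGC3 was lower (log2 -0.74, adjusted p = 0.00869), and the count of tested gamma genes that were lower was 8 of 10, with 0 higher. The filter bears on this count too, and that fit called 8468 of all 13941 tested genes, 50.4% of them as higher. PCDHGA7, PCDHGA8 and PCDHGA12, at 66.4% to 69.9% of shCtrl, did not pass with all 6 libraries (limma adjusted p = 0.216, 0.0648 and 0.319).

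In the wider fit 22 gamma genes were tested, of which 9 were lower, 0 higher and 13 not past the threshold (13 lower without shCtrl replicate 2). Over all 18139 genes of the wider fit with 6 libraries, 24.1% were lower and 23.6% higher. The whole cluster summed to 13.4, 11.7 and 12 FPKM in shCAVIN1 libraries, against 23.8, 14.4 and 19.3 FPKM in shCtrl libraries, 64.5% (57.4% without shCtrl replicate 2). The alpha cluster was near 0 throughout: of 90 values, 51 were exactly 0, a further 23 were under 0.0001 FPKM, and the highest was 0.0452 FPKM, of PCDHA1 in a shCtrl library.

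**Figure D4:**
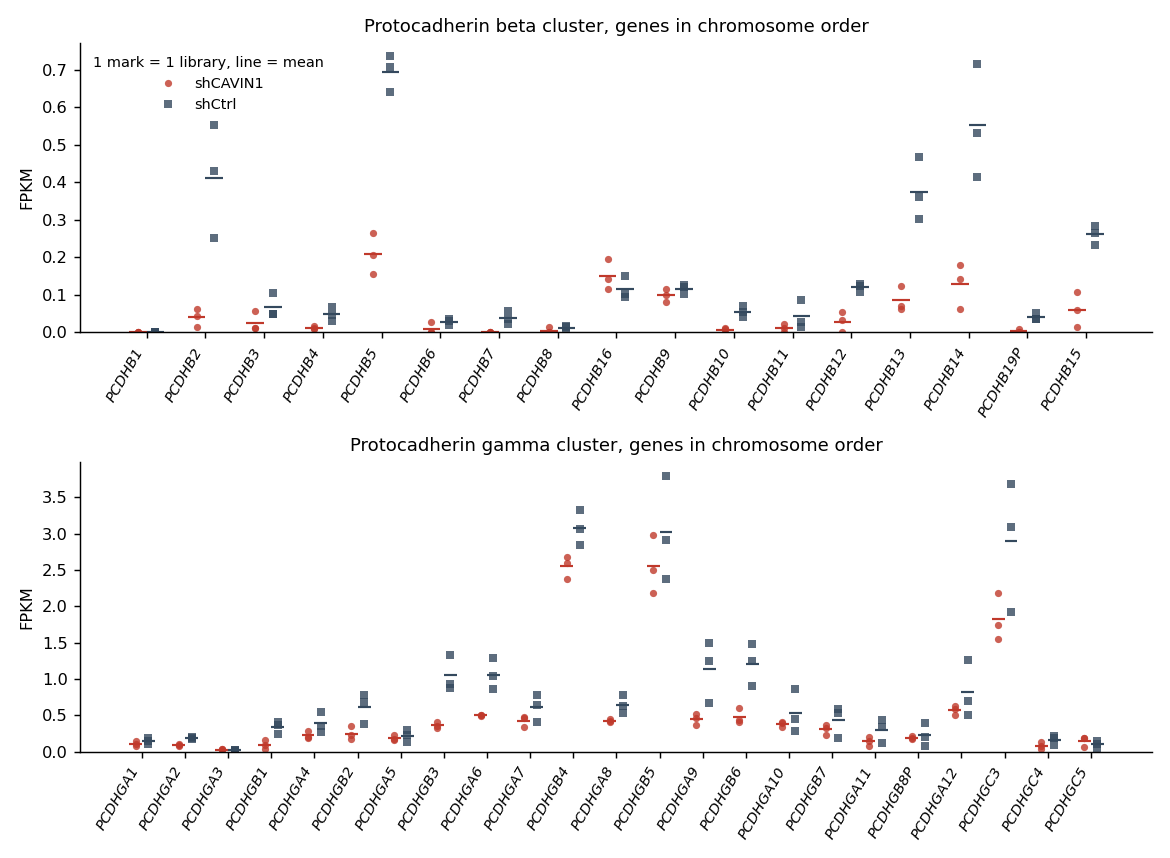
FPKM (linear axis) of the placed beta cluster genes (upper panel) and of the gamma cluster genes (lower panel), in their order along chromosome 5, with circles for the 3 shCAVIN1 libraries, squares for the 3 shCtrl libraries and short lines for the group means. Circles lie below squares for PCDHB2, PCDHB5, PCDHB12 to PCDHB15 and for PCDHGB3 and PCDHGB6, and mix with them for PCDHB16, PCDHB9 and PCDHGB5.

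Genes around the members moved in either direction. Within 2 Mb of the clustered protocadherins, 45 other genes were tested, of which 12 rose and 8 fell, with a median log2 fold change of -0.05, beside 27.3% higher and 28.2% lower over all tested genes. Around FAT1, which fell, 8 of 12 tested genes rose and 1 fell (median 0.36). Around CDH6, which rose, 6 of 7 fell and 0 rose (median -0.39), and around CDH4, which rose, 27 of 43 fell and 1 rose (median -0.38). By contrast, 11 of the 17 tested genes around FAT3 fell and 0 rose (median -0.60), the same direction as FAT3, and 20 of 38 around CELSR2 rose and 1 fell (median 0.23). Around CDH11, 2 rose and 4 fell of 13 (median -0.00). Around CDH13, which rose, 2 rose and 10 fell of 28 (median -0.06). Few genes were tested around the others: 2 of 7 rose and 0 fell around PCDH18, and 1 rose and 1 fell of 3 around CDH2. The 1 gene tested around PCDH10 rose, and 0 of 3 passed around the desmosomal genes. PCDH7 and PCDH9 had 0 tested neighbours. The same background stands beside each of these counts.

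Cytoplasmic partners of cadherins were called in both directions. Of 15 listed catenins and plaque proteins, 11 were tested, of which 2 rose and 4 fell (median log2 -0.06), beside 27.3% higher and 28.2% lower over all tested genes. Rescaled to TPM, 1 was higher and 2 lower, and in the wider fit 4 were higher and 4 lower. Under the filter, CTNND2 stood at 0.693 ± 0.0977 FPKM in shCAVIN1 and 0.147 ± 0.0512 FPKM in shCtrl cells, and CTNNA3 at 0.647 ± 0.0632 FPKM in shCAVIN1 and 0.110 ± 0.0184 FPKM in shCtrl cells. Desmoplakin (DSP), the link of desmosomes to intermediate filaments, fell to 7.83 ± 0.717 FPKM in shCAVIN1, against 18.8 ± 2.82 FPKM in shCtrl cells (log2 -1.20, limma adjusted p = 0.000387). p120-catenin (CTNND1), which holds classical cadherins at the membrane, fell to 23.6 ± 0.687 FPKM in shCAVIN1, against 37.8 ± 4.01 FPKM in shCtrl cells (log2 -0.67, adjusted p = 0.000752). Its relative ARVCF (6.18 ± 0.0641 FPKM in shCAVIN1 and 8.0 ± 0.0524 FPKM in shCtrl) and afadin (AFDN, listed as MLLT4; 11.5 ± 0.244 FPKM in shCAVIN1 and 16.4 ± 0.807 FPKM in shCtrl) fell too, and PKP3 and vinculin (VCL) rose. The core partners beta-catenin (CTNNB1, 175 ± 1.54 FPKM in shCAVIN1 and 182 ± 16.4 FPKM in shCtrl), alpha-catenin (CTNNA1, 105 ± 0.844 FPKM in shCAVIN1 and 98.2 ± 6.49 FPKM in shCtrl) and plakoglobin (JUP, 3.76 ± 0.192 FPKM in shCAVIN1 and 4.24 ± 0.685 FPKM in shCtrl) did not pass the test.

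Of 11 tested planar polarity partners, 5 rose and 3 fell (median log2 0.11), beside the same background. The count of lower calls was 0 when rescaled to TPM and 1 without shCAVIN1 replicate 1 or 3 or shCtrl replicate 1 or 3. The core membrane protein VANGL1 had 12.6 ± 0.405 FPKM in shCAVIN1 and 6.13 ± 0.350 FPKM in shCtrl cells (log2 0.99, limma adjusted p = 5.09e-05). The Frizzled receptor FZD6 (37.4 ± 0.406 FPKM in shCAVIN1 and 24.4 ± 1.40 FPKM in shCtrl), the adaptor DVL1 (43.9 ± 1.40 FPKM in shCAVIN1 and 32.0 ± 1.17 FPKM in shCtrl) and DVL3 rose, as did FJX1, the relative of fly Four-jointed, which tunes Fat and Dachsous binding there (24.1 ± 0.967 FPKM in shCAVIN1 and 19.9 ± 0.816 FPKM in shCtrl). PRICKLE1, PRICKLE2 and PTK7 fell, by at most 0.41 on the log2 scale (log2 -0.41 for PRICKLE2).

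All 13 chromatin factors listed for the protocadherin locus were tested, and 6 rose and 5 fell (median log2 -0.00), beside 27.3% higher and 28.2% lower over all tested genes. Rescaled to TPM, 2 were higher and 2 lower, and 3 were lower without shCAVIN1 replicate 2 or 3 or shCtrl replicate 3. CTCF, which joins promoters of the clusters to their enhancers, was at 16.8 ± 0.542 FPKM in shCAVIN1 and 18.6 ± 0.190 FPKM in shCtrl cells (log2 -0.15, limma adjusted p = 0.0212). The DNA methyltransferase DNMT3A fell (3.76 ± 0.0823 FPKM in shCAVIN1 and 5.85 ± 0.164 FPKM in shCtrl, log2 -0.57), the cohesin release factor WAPL (listed as WAPAL; 18.6 ± 0.400 FPKM in shCAVIN1 and 25.4 ± 0.554 FPKM in shCtrl) and the cohesin subunit STAG2 fell, and the subunit SMC1A rose (20.5 ± 0.596 FPKM in shCAVIN1 and 15 ± 0.555 FPKM in shCtrl). NIPBL, the cohesin loader, fell to 4.15 ± 0.741 FPKM in shCAVIN1, against 7.85 ± 2.29 FPKM in shCtrl cells (adjusted p = 0.0237).

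Of the 7 proteases that cut cadherins, 3 rose and 2 fell (median log2 0.04), beside 27.3% higher and 28.2% lower over all tested genes. When rescaled to TPM, 3 were higher and 1 lower. ADAM10, which sheds cadherin ectodomains, had 30.1 ± 1.02 FPKM in shCAVIN1 and 35.3 ± 0.901 FPKM in shCtrl cells (log2 -0.23, limma adjusted p = 0.00508). Of the gamma-secretase subunits, which cut the remaining stub, APH1A (139 ± 1.29 FPKM in shCAVIN1 and 88.7 ± 5.46 FPKM in shCtrl), NCSTN (18.4 ± 0.261 FPKM in shCAVIN1 and 11.2 ± 1.10 FPKM in shCtrl) and PSEN2 rose and APH1B fell (2.70 ± 0.191 FPKM in shCAVIN1 and 6.28 ± 0.565 FPKM in shCtrl, log2 -1.08). Among cadherin-domain genes whose symbols lie outside the families above, 3 of 9 were tested. Of these CLSTN2, a calsyntenin, fell, beside 28.2% lower over all tested genes. It reached the filter only through the shCtrl group. It was listed at 0 in shCAVIN1 replicates 1 and 3 and at 0.00641 FPKM in replicate 2, against 3.64, 2.64 and 2.97 FPKM in shCtrl libraries (log2 -2.83, SE 0.119, limma adjusted p = 2.13e-05). CLSTN1 (24.3 ± 2.01 FPKM in shCAVIN1 and 24.0 ± 3.22 FPKM in shCtrl) and CLSTN3 did not pass. Under the filter, RET lay higher, at 0.335 ± 0.0541 FPKM in shCAVIN1 and 0.0613 ± 0.0153 FPKM in shCtrl cells. CDHR1 lay lower, at 0.00930 ± 0.000641 FPKM in shCAVIN1 and 0.141 ± 0.0338 FPKM in shCtrl cells.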

How the data were processed

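The authors deposited 1 table of FPKM values with a column per library, from RNA extracted with TRIzol and sequenced with a stranded total RNA kit, per the labels' protocols. Per the submitters' processing notes, reads were handled with CASAVA, bcl2fastq 2.17.1.14, TopHat and TopHat2 (2.2.5, as written there) on GRCh38. Not given in the sources used here are the quantifier, the annotation, the strand setting and the treatment of shared reads. FPKM values scale to all mapped fragments, so very abundant RNAs in a library lower its other genes. Whole reads were not recovered, so no count model was used. Relative depth was estimated from values under 0.02 FPKM.

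Genes with a mean of at least 0.5 FPKM were tested with limma 3.58.1 (R 4.3.3; group as the only term, variance trend), tested on simulated data beforehand. Members and lists were chosen with earlier results of these data known, so the design adds no independent support. Members were named where a group's mean reached 1 FPKM or the test was passed, and up to 4 genes per partner list by lowest adjusted p; the remaining partner genes and the low members in the text were chosen after their values were seen. Of the lists, AFDN and WAPL matched through older symbols. From the epithelial list, 1 gene is not reported here and was left out of its counts and sums. Alternatives covered pseudocounts of 0.1 and 1, no filter, a filter of 2 FPKM, rescaling to TPM, median-of-ratios and quantile scaling, robust variances, the replicate block and leaving out each library. The wider fit and its repeat without shCtrl replicate 2 were chosen after seeing the data. Positions, exons and lengths come from GENCODE 29. Promoter windows, from 250 bases before to 50 after the start, matched 80 members. Protein sequences were not analysed here.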

Additional observations from a re-analysis of the deposited data

How the results depend on the processing

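Of the 19 members that passed the test, 16 kept the call under each of the 17 alternatives that tested them, and CELSR2, PCDHGA9 and PCDHGB4 lost it somewhere. Of the 9 that did not pass, 5 did under some alternative (CDH24, CELSR3, PCDHGA7, PCDHGA8 and PCDHGC3). Counts differed where the filter was changed, alone or, in the wider fit, together with the pseudocount. Members higher numbered 14 with no filter, 5 with a filter of 2 FPKM, 15 in the wider fit and 14 in that fit without shCtrl replicate 2, against 9 in the main test. Members lower numbered 28 with no filter, 4 with a filter of 2 FPKM, 24 in the wider fit and 28 in that fit without shCtrl replicate 2, against 10; these alternatives tested other numbers of genes. Rescaling to TPM called 3412 genes, against 7734, moved the share of higher calls to 64.4%, against 49.2%, and moved the median log2 fold change of all genes to 0.09, against -0.02; the cause was not tested. FAT4, at 0.07 in the main test, ranged from -0.13 (without shCtrl replicate 2) to 0.22 over the fits that left out 1 library, and was at -0.16 in the wider fit without shCtrl replicate 2. Leaving out 1 library at a time gave 6218 to 8468 genes called, 8 to 10 members higher and 8 to 13 lower. Deviations of same-numbered libraries correlated weakly (0.0936, 0.0714 and -0.0282), and those of differently numbered libraries ranged from -0.146 to 0.0772. With 3 libraries per group, this cannot settle whether the replicate numbers pair the libraries. With the replicate block, 7167 genes, 9 higher and 10 lower members passed. Under the block PCDHGC3 passed (adjusted p = 0.0219) and PCDHGB4 did not (0.0944), and 1 planar polarity partner was lower, against 3. Depth is unknown, so no counting interval can be given, and values under 0.05 FPKM are the least precise.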
